A study of Mus musculus with 8 samples.

Results

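The Slc30a genes encode the zinc exporters (ZnT proteins), which carry zinc out of the cytosol, either across the plasma membrane or into vesicles and organelles. Their level was compared in islets of control and βFbln5KO mice. The members were the 10 genes Slc30a1 to Slc30a10, of 22911 genes that could be named on the array, and they were found by matching the RefSeq accession of each non-control probe to the gene symbol. The match gave 12 probes, 1 for each gene and a second probe for Slc30a5 and Slc30a9, and each probe had 1 spot per array. All 10 genes were measured. Of these, 7 (Slc30a1, Slc30a4, Slc30a5, Slc30a6, Slc30a7, Slc30a8 and Slc30a9) were well above background on all 8 arrays, Slc30a2 and Slc30a10 were so on some arrays, and Slc30a3 was so on none.

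Fbln5 encodes fibulin-5, a secreted protein of the extracellular matrix. Control mice were floxed at Fbln5 and are labelled only as floxed. βFbln5KO mice carried the same floxed gene together with Ins1-cre, a Cre transgene under the promoter of the Ins1 gene, so that the deletion is aimed at β-cells while the other islet cells keep the gene. All mice were 11 weeks old, and the study's methods describe male littermates. Each group had 4 biological replicates, each with RNA from 150 islets extracted directly after isolation, and all were hybridised to 1 slide of 8 one-colour Agilent arrays. Values are the log2 of the processed signal relative to the 75th percentile of that array, so a value of 0 lies at the 75th percentile. They are compared only within a probe, since the signals of different probes are not on a common scale.

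Zinc is stored in insulin granules together with insulin, whose hexamers it holds in place, and islets are therefore among the zinc-rich tissues of the body. Slc30a8 (ZnT8) loads the granules of β-cells, and its human counterpart is a known type 2 diabetes risk gene and an autoantigen of type 1 diabetes. Slc30a1 sits in the plasma membrane, Slc30a5, Slc30a6 and Slc30a7 work in the early secretory pathway, where Slc30a5 and Slc30a6 act as a pair, and most of the remaining members serve other vesicles and organelles. The opposite direction, entry into the cytosol, is the work of the Slc39a (ZIP) importers. Metallothioneins buffer zinc, and the zinc sensor Mtf1 binds metal response elements and raises the transcription of Mt1, Mt2 and Slc30a1 when zinc is high.

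To show where that sensor could read the family's own promoters, 300-base windows, from 250 bases before to 50 bases after the annotated start in RefSeq (GRCm38.p6), were searched on both strands for TGCACNC or TGCGCNC, the core of the element. Of 10 exporter genes, 9 (all but Slc30a8) had a window and 6 had at least 1 match in any of their windows. Of all 32851 windows, 25.7% had a match, a share that counts windows and not genes. The exporter windows ranged in GC content from 53.3% to 81.7%, where the median of all windows was 52.7%. No share was computed for windows of similar GC content. Slc30a4 had 3 matches, Slc30a1 and Slc30a2 had 2 each, Slc30a5 had 1, Slc30a3 had 1 in the first of its 2 windows, and Slc30a10 had 3, of which a pair overlap on opposite strands. Slc30a6, Slc30a7 and Slc30a9 had none. Among all windows 7.11% held at least 2 matches and 1.97% at least 3. The matches of the plasma membrane exporter and of 2 exporters that were detected on every array are shown with 8 bases on either side, beside the first match of each of the metallothionein genes Mt1 and Mt2. Capitals mark the 7 matched bases, and each sequence is read 5′ to 3′ on the strand given.
Slc30a1, chr1:191906730-191906752, minus strand: ctttgcttTGCACTCggaacccc
Slc30a1, chr1:191906803-191906825, minus strand: gcggcgacTGCGCTCggcccgga
Slc30a4, chr2:122702877-122702899, plus strand: aggtcttgTGCGCTCtgagcccc
Slc30a4, chr2:122702741-122702763, plus strand: gcggcgcgTGCGCCCgcgaggcg
Slc30a4, chr2:122702655-122702677, plus strand: ccagccacTGCACCCgcccgccc
Slc30a5, chr13:100833461-100833483, plus strand: cctgcgccTGCGCGCtggtggac
Mt1, chr8:94179058-94179080, plus strand: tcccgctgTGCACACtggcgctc
Mt2, chr8:94172387-94172409, plus strand: atcgcctcTGCACCCggcccctc
A match is only a run of letters. The levels of these genes on the arrays are given with their roles in the following paragraphs.

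The exporters did not differ detectably between βFbln5KO and control islets. None of the 10 genes passed an adjusted p of 0.05 in limma over all 56605 probes, a threshold that 6 probes of the whole array (0.0106%) passed. The 7 genes detected on every array differed by −0.11 to 0.11 on the log2 scale, with 4 higher and 3 lower in βFbln5KO islets, and their 95% intervals together ran from −0.28 to 0.34. Their median difference was 0.019, where that of all 26612 probes detected on every array was −0.025. At an unadjusted limma p under 0.05, 0 of these 7 genes were called in either direction, beside 6.28% of the probes detected on all arrays. The methods' t-test called 2 of them at that threshold, Slc30a8 lower and Slc30a9 higher, and neither after Benjamini-Hochberg adjustment. Over all 56603 probes that it tested, it called 2233 lower and 10942 higher before adjustment. Slc30a9 was also called higher in limma under quantile normalization and under a floor on dim signals, where 929 and 350 of 56605 probes were. Among all 10 genes, Slc30a3 and Slc30a10 were called higher and 0 lower at that threshold, where 20.7% of all probes were called higher and 3.97% lower. Slc30a3 was below background on all 8 arrays and Slc30a10 on all but 1. The probes below background on all 8 arrays, to which Slc30a3 belongs and Slc30a10 does not, were as a class higher on the βFbln5KO arrays, with 57.4% of them called higher and a median difference of 0.47.

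**Figure D1:**
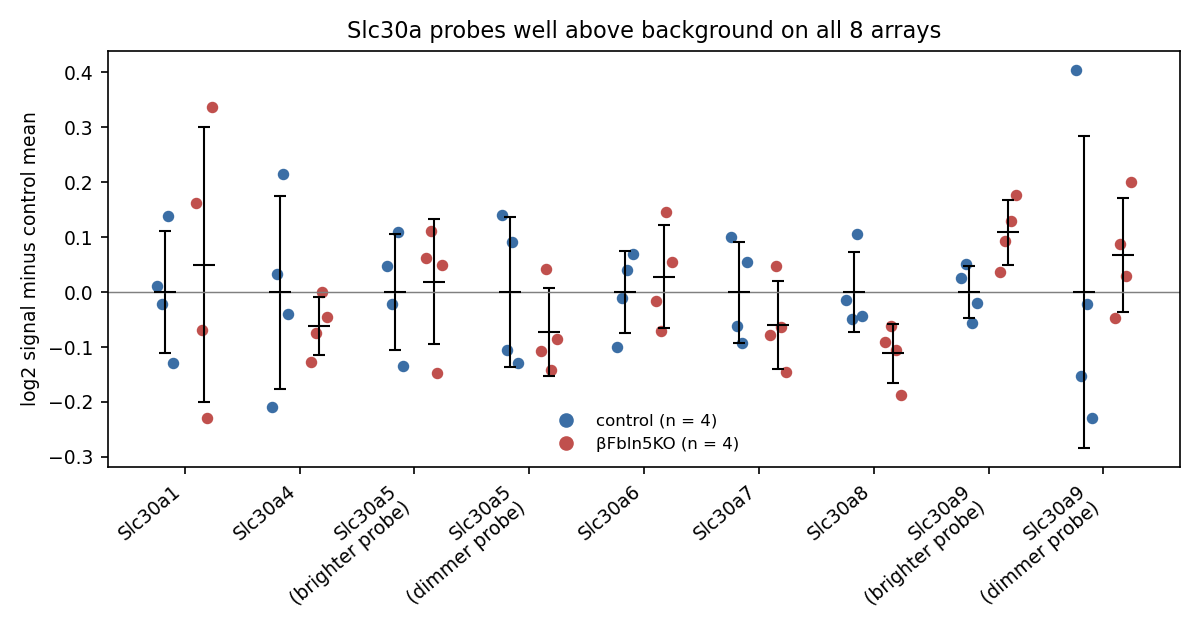
Log2 signal minus the control mean of that probe (vertical axis) for the 9 Slc30a probes detected on every array, with 1 point per array, control in blue and βFbln5KO in red. Black bars are the group mean and SD (n = 4). The groups overlap for every probe but Slc30a8, whose 4 βFbln5KO arrays all lie below the control arrays.

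Slc30a8, the exporter of the insulin granule, was well above background on all arrays, with values of 6.81, 6.78, 6.93 and 6.79 in control islets. The βFbln5KO values were 6.74, 6.77, 6.72 and 6.64. The groups did not overlap, but the gap between the lowest control and the highest βFbln5KO array was smaller than the spread within either group, and 3.43% of 26341 probes detected on all arrays lay lower in this way. The means were 6.83 ± 0.073 and 6.72 ± 0.054 (SD, n = 4), a log2 difference of −0.11 (SE 0.074, 95% interval −0.28 to 0.058, limma adjusted p = 0.433). On the linear scale βFbln5KO islets had 0.926 of the control level, with an interval from 0.823 to 1.04. The difference of Slc30a8 was close to that of other bright probes. Of 278 probes with a mean log2 signal over 6, 87.4% were lower in βFbln5KO, with a median difference of −0.092. When the arrays were quantile normalised, which gives all arrays the same distribution of signals, the median of these 278 probes became 0.027 and the difference of Slc30a8 became 0.0057. Under normexp background correction 86.0% of the 278 probes were lower, with a median of −0.084, and Slc30a8 differed by −0.10. The part of the scaling in the difference of Slc30a8 was not tested.

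The islet samples held β-cell RNA, as their label names, and also acinar RNA, with 12 of 13 acinar markers well above background on every array. All 9 β-cell markers were well above background on every array, none was called at an unadjusted limma p under 0.05, and their median difference was −0.073, with 7 lower and 2 higher. The differences of the 9 markers ran from −0.18 to 0.10, and that of Slc30a8, −0.11, lay inside this range. The insulin genes were at its lower end, with Ins1 at −0.15 (limma adjusted p = 0.493) and Ins2 at −0.18 (limma adjusted p = 0.464). The mean log2 signal over the 9 β-cell markers lay between 5.45 and 5.53 on control arrays and between 5.37 and 5.47 on βFbln5KO arrays. In whole islet RNA, fewer cells of a type and less RNA per cell cannot be told apart.

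Over the 8 arrays the signal of Slc30a8 was followed most closely by Rasgrp3, a Ras activator of the guanine exchange kind (Pearson r = 0.987), the olfactory receptor gene Olfr544 (0.979), the ribosomal protein gene Rpl13 (0.976), Tmx3, a disulfide isomerase of the endoplasmic reticulum (0.970), and 1700008J07Rik (0.968). The correlation was computed against 13551 genes, of which 59 (0.435%) exceeded 0.9. With the group means taken out, the r was 0.974 for Rasgrp3, 0.976 for Olfr544, 0.952 for Rpl13, 0.950 for Tmx3 and 0.936 for 1700008J07Rik. The points share the arrays and their scaling, so the values describe these libraries only. Of 5 hormone genes looked at, Gcg, the glucagon gene of α-cells, reached 0.966, Ins1 0.934, Iapp 0.835, Sst 0.824 and Ins2 0.793, where Iapp, Sst and Ins2 ranked 184, 222 and 309 among all genes. With the group means taken out, the r of Gcg was 0.980, above those of the 5 leading genes, and that of Ins1 was 0.896. Control replicate 3 was the highest array and βFbln5KO replicate 4 the lowest for Slc30a8, Gcg and Ins1 alike. Under quantile normalization the r of the 5 leading genes fell to between 0.185 and 0.425. Under normexp the r of Rasgrp3 was 0.399 and that of Rpl13 0.808, and with the mean over the probes of a gene the r of Rasgrp3 was 0.645. The other detected exporters did not run with Slc30a8, with r from −0.88 for Slc30a9 to 0.50 for Slc30a4, and among all 21 pairs of the 7 detected exporters r ranged from −0.88 to 0.66 with a median of −0.11.

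**Figure D2:**
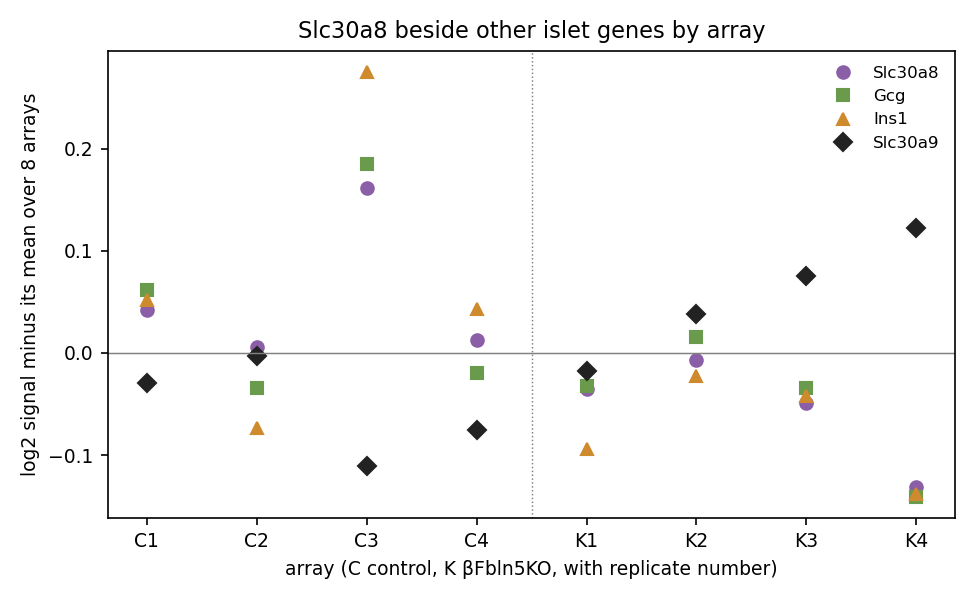
Log2 signal minus the mean of that gene over the 8 arrays (vertical axis) for Slc30a8, Gcg, Ins1 and Slc30a9 on each array (C, control; K, βFbln5KO; with the replicate number). Slc30a8, Gcg and Ins1 are highest on C3 and lowest on K4, and Slc30a9 is lowest on C3 and highest on K4.

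Slc30a9, a widely expressed member that is assigned to mitochondrial zinc export, had the opposite sign. Its brighter probe read 0.94, 0.96, 0.85 and 0.89 in control islets and 0.95, 1.00, 1.04 and 1.09 in βFbln5KO islets. In βFbln5KO, 3 of 4 arrays lay above all control arrays and replicate 1 lay inside their range. The means were 0.91 ± 0.048 and 1.02 ± 0.059 (SD, n = 4), with a difference of 0.11 (SE 0.049, 95% interval −0.0024 to 0.22, limma adjusted p = 0.213). The second probe overlapped fully, with controls from −2.18 to −1.54 and βFbln5KO from −1.99 to −1.75, and differed by 0.067 (SE 0.15, limma adjusted p = 0.853). The difference of the brighter probe stayed between 0.087 and 0.13 when each array was left out in turn, and its adjusted p was 0.144 or higher under every alternative.

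Slc30a1, the plasma membrane exporter and a target of Mtf1, read −0.90, −0.94, −0.78 and −1.05 in control islets and −0.75, −0.99, −1.15 and −0.58 in βFbln5KO islets. The βFbln5KO arrays held both the highest and the lowest value of the series. The means were −0.92 ± 0.11 and −0.87 ± 0.25 (SD, n = 4), and the difference was 0.050 (SE 0.13, 95% interval −0.24 to 0.34, limma adjusted p = 0.874). Without βFbln5KO replicate 4, the highest array, the difference was −0.046.

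The exporters of the early secretory pathway differed by less than the spread between arrays. Slc30a5 read 1.94, 1.87, 2.00 and 1.76 in control and 1.95, 2.00, 1.74 and 1.94 in βFbln5KO islets on its brighter probe, a difference of 0.019 (SE 0.073, 95% interval −0.15 to 0.19, limma adjusted p = 0.923). Its second probe, on which controls ranged from −0.53 to −0.26 and βFbln5KO from −0.54 to −0.36, differed by −0.073 (SE 0.081, limma adjusted p = 0.678), so that the 2 probes of this gene disagreed in sign within their errors. Slc30a6, the partner of Slc30a5, spanned 1.76 to 1.93 in control islets and 1.79 to 2.01 in βFbln5KO islets and differed by 0.028 (SE 0.061, 95% interval −0.11 to 0.17). Slc30a7, which supplies zinc to enzymes in the Golgi apparatus, ranged from 0.77 to 0.96 and from 0.72 to 0.91, with a difference of −0.060 (SE 0.063, 95% interval −0.20 to 0.084). Together the 95% intervals of these 3 genes ran from −0.20 to 0.19.

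Slc30a4, which fills endosomal and secretory vesicles and loads zinc into milk, had the promoter window with 3 element matches shown above. It read 1.98, 2.22, 2.40 and 2.15 in control and 2.06, 2.11, 2.19 and 2.14 in βFbln5KO islets. The βFbln5KO arrays all fell inside the control range, and their SD of 0.054 lay below that of the controls at 0.18. The difference was −0.062 (SE 0.084, 95% interval −0.25 to 0.13, limma adjusted p = 0.745).

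Of the dim members, Slc30a10 had the largest difference. It encodes a transporter of the cell surface that is known above all for the export of manganese. Every control array left it below background, at −6.96, −6.96, −7.14 and −6.91, and so did βFbln5KO replicates 1, 2 and 3, at −6.28, −5.63 and −6.33. Replicate 4 read −3.44 and was the only array on which the gene was detected. The means were −6.99 ± 0.10 and −5.42 ± 1.36 (SD, n = 4), and the fitted difference was 1.57 (SE 0.58, 95% interval 0.25 to 2.90, limma adjusted p = 0.127). No fold is given, since the βFbln5KO mean lay below the lowest signal that counted as detected on the control arrays, −5.01 to −4.79. Without βFbln5KO replicate 4 the fitted difference was 0.91 and its limma adjusted p 0.00863, in a fit that called 11206 probes higher and 338 lower after adjustment, and none of the remaining arrays detected the gene. When signals under a common floor were raised to it, the difference was 0.19.

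Slc30a3, which loads the zinc-containing vesicles of neurons, was below background on every array. It read −7.07, −7.02, −7.21 and −7.01 in control and −6.41, −6.46, −6.45 and −6.84 in βFbln5KO islets. The groups did not overlap and differed by 0.54 (SE 0.13, limma adjusted p = 0.0728), close to the median of 0.47 over all dim probes. The detection limit itself was higher on the βFbln5KO arrays, at −4.70 to −4.19, and 52.6% to 56.6% of their spots were well above background, against 56.6% to 58.8% on the control arrays. After normexp background correction the difference of Slc30a3 was −0.093. No level of Slc30a3 can be given for either group.

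**Figure D3:**
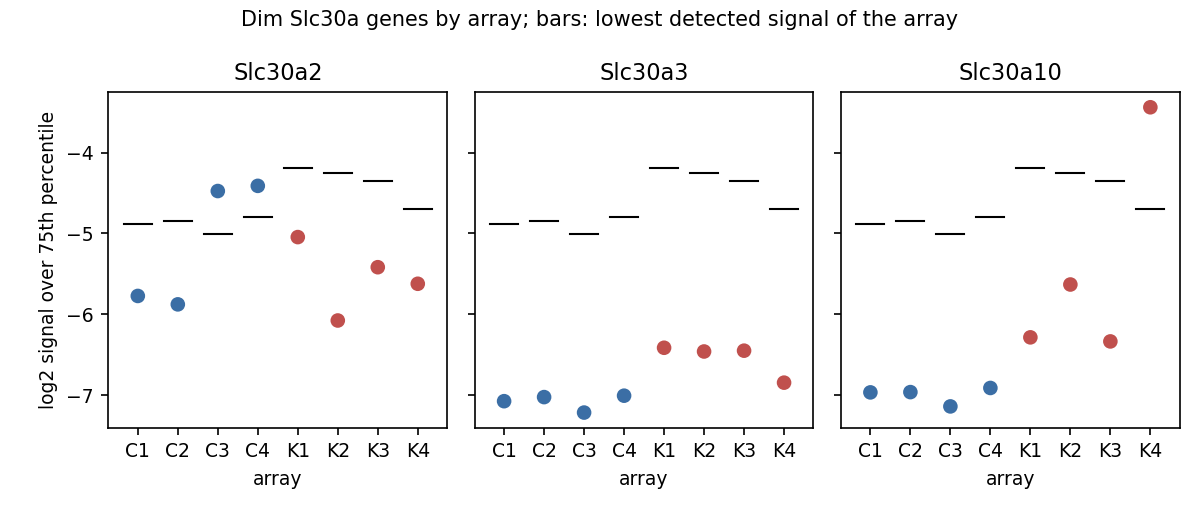
Log2 signal relative to the 75th percentile of the array (vertical axis) for Slc30a2, Slc30a3 and Slc30a10 on each array (C, control, blue; K, βFbln5KO, red; with the replicate number). The short black bars are the lowest signal that was well above background on that array. Only Slc30a2 on C3 and C4 and Slc30a10 on K4 lie above the bar.

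Slc30a2, a vesicle exporter of secretory tissues that include the acinar cells of the exocrine pancreas, was detected on control replicates 3 and 4 alone. It read −5.77, −5.88, −4.48 and −4.41 in control and −5.04, −6.08, −5.42 and −5.62 in βFbln5KO islets. The groups overlapped, and the fitted difference was −0.41 (SE 0.43, 95% interval −1.37 to 0.56, limma adjusted p = 0.655). It ranged from −0.65 to −0.17 with each array left out, was −0.084 after normexp background correction and was 0 under the floor on dim signals. The 2 arrays that detected it were those with the most acinar RNA. The mean log2 signal of 13 acinar markers was 5.57, 5.21, 7.11 and 6.71 on the control arrays and 5.51, 4.55, 4.57 and 6.30 on the βFbln5KO arrays, and 0 of the 13 markers was below background on all arrays. The 12 markers detected on every array were all lower in βFbln5KO by their group means, the median difference of the 13 was −0.93, and 1 of them, Cela1, was called lower at an unadjusted limma p under 0.05, where 3.97% of all probes were. Across the 8 arrays Slc30a2 and the acinar mean had a Pearson r of 0.762 (Spearman rho 0.714). The part of acinar RNA in the values of Slc30a2 was not tested. For Slc30a8 the r with the acinar mean was 0.402 (Spearman rho 0.476).

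**Figure D4:**
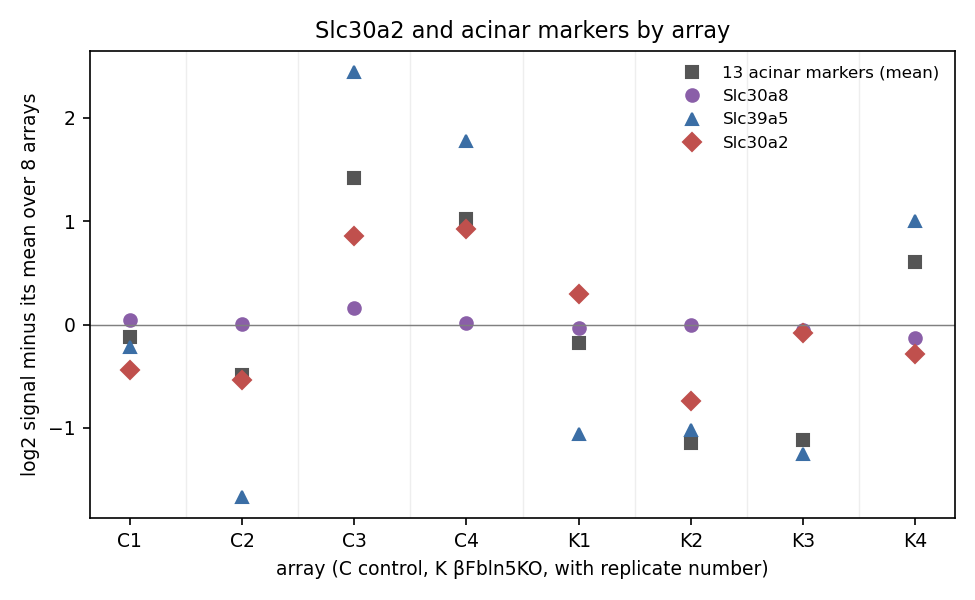
Log2 signal minus its mean over the 8 arrays (vertical axis) for the mean of 13 acinar markers, Slc39a5, Slc30a2 and Slc30a8 on each array (C, control; K, βFbln5KO; with the replicate number). The acinar mean, Slc39a5 and Slc30a2 are all high on C3 and C4, while Slc30a8 moves little.

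The importers and the buffering genes gave the setting of the exporters. Of 14 Slc39a importers, 9 were detected on all arrays, 4 on some and 1 on none. The 9 differed by −0.065 to 0.33 with a median of 0.0060, and none was called. The single importer called higher at an unadjusted limma p under 0.05, beside the 20.7% of all probes, was Slc39a12, which is not well above background on any array and had the same pattern as Slc30a3, with −6.95, −6.95, −7.12 and −6.89 in control, −6.28, −6.38, −6.34 and −6.77 in βFbln5KO and a difference of 0.54 (limma adjusted p = 0.0728). The upper end of the range of the detected importers was Slc39a10, at 0.33 (SE 0.16, 95% interval −0.042 to 0.70), chosen after its value was seen. So was Slc39a5, an importer of the basolateral membrane of intestinal and acinar cells, which followed the acinar mean with an r of 0.927. It read −5.38, −6.83, −2.72 and −3.40 in control and −6.23, −6.19, −6.42 and −4.17 in βFbln5KO islets. The gene was well above background on only 3 arrays, 2 control and 1 βFbln5KO, so most values in this r are background readings.

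All 6 genes of zinc buffering and sensing were detected on every array, and none was called. Their median difference was −0.070. Mt1 and Mt2, the metallothioneins whose promoter matches are shown above, both differed by −0.11, with 95% intervals from −0.45 to 0.24 and from −0.60 to 0.38, and were chosen after their values were seen. Both were highest on control replicate 3 and second highest on βFbln5KO replicate 4. Their Pearson r with the acinar mean was 0.689 and 0.707, and their Spearman rho was lower, at 0.476 and 0.619. By the rule for the largest differences, Mt4 differed by 0.44 (SE 0.31, limma adjusted p = 0.473), with controls from −4.00 to −3.21 and βFbln5KO from −3.85 to −2.45. Mt3 differed by −0.34 (SE 0.28), with control replicate 1 at 0.66 and all 7 other arrays between −0.76 and −0.50. The sensor Mtf1 differed by −0.032 and Tmem163, a vesicular zinc transporter outside the Slc30a family, by 0.062.

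**Figure D5:**
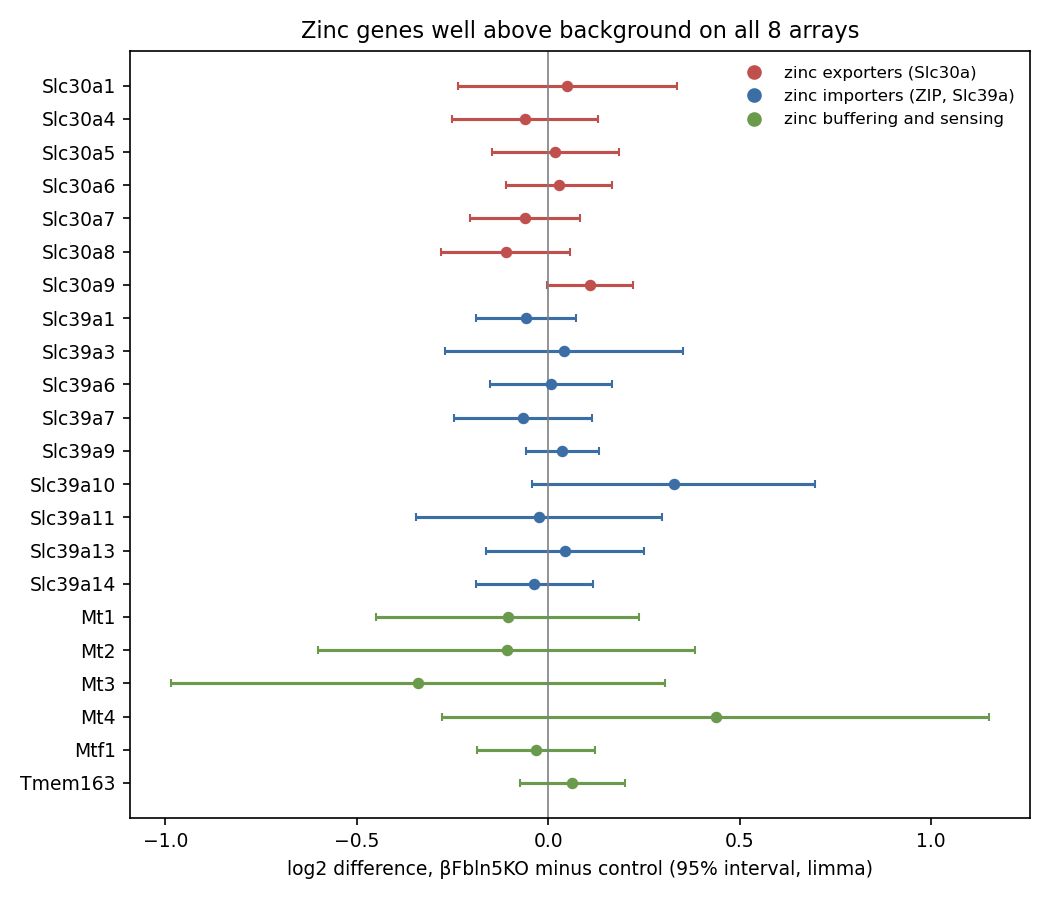
Log2 difference, βFbln5KO minus control (horizontal axis), with its 95% interval from limma for the zinc exporters, importers and buffering genes that were well above background on all 8 arrays (n = 4 per group). Every interval contains 0, and the exporters lie between −0.11 and 0.11.

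As a check of the labels, Fbln5 itself read −1.70, −1.32, −2.05 and −1.83 in control and −2.74, −2.40, −2.38 and −1.37 in βFbln5KO islets. The first 3 βFbln5KO replicates lay below all controls and replicate 4 lay inside the control range. The difference was −0.50 (SE 0.29, limma adjusted p = 0.342, exact two-sided permutation p = 0.171, where 0.029 is the smallest p that 4 against 4 arrays allow), and without replicate 4 it was −0.78 (limma adjusted p = 0.0227). Other islet cells keep the gene, and the position of the probe relative to the deleted exons was not analysed here. The same array, labelled βFbln5KO replicate 4, was the only one to detect Slc30a10 and the lowest for Slc30a8. Without it the difference of Slc30a8 was −0.086.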

How the data were processed

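Per the labels and the study's methods, total RNA was labelled with Cy3 and the authors processed the scans with Agilent Feature Extraction 11.0.1.1 at default parameters. They deposited, for each of 62976 spots per array, a processed signal intensity after background subtraction and spatial detrending, without normalization between arrays, and flags for outliers and for spots well above background. Their deposited table of 35553 probes holds the same intensities over 1 divisor per array (a linear ratio, 100% of values within 0.01%) and no probe that is below background on all arrays.

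The processed signals of 59305 non-control spots (56605 probes) were taken as log2 minus the 75th percentile of the array, which was 709 to 1012 for control and 910 to 1055 for βFbln5KO arrays. Outlier-marked values (0.356%, none of them in a member) were left out, replicate spots were averaged, and a gene was read from its brightest probe. The groups were compared with limma 3.58.1 (lmFit, eBayes with trend) in R 4.3.3, p-values were adjusted by the method of Benjamini and Hochberg across all probes, and the scripts were tested on simulated data. The precision is limited by 4 arrays per group. The control arrays lay in the first row of the slide and the βFbln5KO arrays in the second, so genotype and slide row cannot be told apart. Plots were made in Python 3.11.15 (matplotlib 3.10.9).

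The genes named were all members, Fbln5, importers and buffering genes with an unadjusted p under 0.05 or otherwise the 2 largest differences among detected ones, and the 5 genes most correlated with Slc30a8. Named outside this rule, after their values were seen, were the hormone genes, Cela1, Mt1, Mt2, Mtf1, Tmem163, Slc39a5, Slc39a7, Slc39a10 and, among changes with an array left out, Slc39a4. Members, gene lists and tests were chosen with earlier results of these data known, and the level of 6 for bright probes after the values were seen. The other marker lists (delta, PP, ductal, endothelial, macrophage and mesenchymal cells) had 0 genes called, and the result of 1 further marker list is not reported here. The other settings tried were quantile normalization, normexp (offset 50), leaving out probes detected on fewer than 4 arrays, a floor under dim signals, no variance trend in eBayes, outlier-marked spots included, averaging the probes of a gene, the deposited table, the methods' t-test, the replicate number as a block, and leaving out each array.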

Additional observations from a re-analysis of the deposited data

Results flagged for a closer look

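In groups of 4 arrays, an array far from the other 3 was looked for by Dixon's ratio. The probes of the zinc genes and of Fbln5 gave 66 groups and 6 were found, where chance gives about 1 in 20. Slc30a3 on βFbln5KO replicate 4 read −6.84, nearer to the control arrays than the others of its group, which lay between −6.46 and −6.41, with none of them above background. Slc39a5 on the same array read −4.17, where the others lay between −6.42 and −6.19, and it was the only βFbln5KO array that detected the gene. Slc39a7, an importer of the endoplasmic reticulum, read 6.41 on βFbln5KO replicate 2 against 6.21 to 6.24 on the others. Slc39a10 read −1.84 on control replicate 1, with the others between −2.01 and −1.98. Mt2 read 7.05 on control replicate 3, with the others between 6.29 and 6.40, and that array had the highest acinar marker mean. Mt3 read 0.66 on control replicate 1, with the others between −0.74 and −0.56.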

How the results depend on the processing

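Of the members detected on all arrays, Slc30a7 and Slc30a9 kept their direction under all 18 alternatives. Slc30a8 reversed only under quantile normalization (0.0057) and stayed between −0.13 and −0.076 with each array left out. Slc30a3 reversed under normexp (−0.093), and Slc30a5 with the mean over its probes (−0.027). With an array left out, Slc30a1 ranged from −0.046 to 0.14, Slc30a4 from −0.13 to 0.0099, Slc30a5 from −0.026 to 0.074 and Slc30a6 from −0.011 to 0.062. They turned without βFbln5KO replicate 4 (Slc30a1, −0.046), control replicate 3 (Slc30a4, 0.0099), control replicate 4 or βFbln5KO replicate 2 (Slc30a5, −0.026 and −0.012), and control replicate 1 or βFbln5KO replicate 3 (Slc30a6, −0.0048 and −0.011).

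The 2 exporters called higher at an unadjusted p were 0 under normexp, the filter on dim probes and the deposited table, and 1 (Slc30a9) under quantile normalization and under the floor, and ranged from 1 to 3 with an array left out. With control replicate 3 left out the count was 1 (Slc30a3), and with βFbln5KO replicate 1 left out it was 3. The methods' t-test called 1 exporter lower, Slc30a8, and 2 higher, Slc30a3 and Slc30a9, beside 2233 probes lower and 10942 higher of 56603. It called 0 exporters after Benjamini-Hochberg adjustment, which 82 probes passed higher and 5 lower. Past an adjusted p, counted after seeing the data, the 0 exporters became 1 without the variance trend (Slc30a3, adjusted p = 0.0498, beside 6184 probes higher) and ranged from 0 to 2 with an array left out, the 2 being Slc30a3 and Slc30a10 without βFbln5KO replicate 4. The 1 importer called was 0 under the deposited table, the floor, the filter, normexp and quantile normalization, and 1 to 2 with an array left out, the second being Slc39a5, Slc39a10 or Slc39a4. The 0 buffering genes called ranged from 0 to 1, with Mt4 called without βFbln5KO replicate 3. Fbln5 ranged from −0.78 to −0.33 with an array left out. The filter gives no value for Slc30a2, Slc30a3 and Slc30a10, nor the deposited table for Slc30a3. Over all probes, those called higher and lower at an unadjusted p went from 11730 and 2246 to 301 and 3222 under normexp, 929 and 2424 under quantile normalization, 350 and 1676 under the floor, 227 and 1968 of 30207 under the filter and 516 and 2020 in the deposited table. The cause of these changes was not tested.

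With the replicate number as a block, the difference of Slc30a8 was −0.11, as without it, and 2 exporters were called higher. After adjustment 2 probes passed, against 6 without the block. The labels do not say whether equal numbers pair the arrays. Of 4 same-numbered pairs, 2 correlated above 0.1 (r from −0.22 to 0.30), and 2 of the 4 control arrays correlated best with their own number. So few pairs cannot settle whether the arrays are paired. Signals below background, and 4 arrays per group, limit what can be said of Slc30a2, Slc30a3 and Slc30a10.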
